A study of Homo sapiens with 4 samples.

Results

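The chaperone network of the cytosol and the mitochondrion was examined in Huh-7, an established human hepatocellular carcinoma cell line, on 4 Affymetrix expression arrays. The genes were taken from a list of 49 heat shock proteins, their co-chaperones, the subunits of the chaperonin TRiC and the heat shock factors. A gene was included where a probe set names it alone, and its probe set with the highest mean intensity was used. This gave 46 of the 49 genes, out of 12165 genes measured. HSPB1, whose probe set also names another gene, and AHSA1 and HSF2, for which no probe set was found, were not analysed here.

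Untreated cells gave 2 arrays, and another 2 came from cells collected 48 h after transforming growth factor beta (TGF-beta), whose receptors activate SMAD transcription factors, was added. Neither the dose nor the time at which untreated cells were collected was found in the labels. All cells were Huh-7 in serum-supplemented medium, and RNA came from confluent dishes. Arrays are numbered 1 and 2 within a group, with nothing said of separate cultures, so p-values measure the spread between these samples only, which may be technical. Values are linear probe set intensities, and fold changes are differences of log2 intensity, TGF-beta minus untreated, from limma fitted over all genes. A gene is called changed at a Benjamini-Hochberg adjusted p under 0.05. With 2 arrays a group, the smallest p of an exact permutation test is far above that threshold, so the calls rest on variance borrowed across genes.

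Chaperones bind unfolded segments of other proteins and keep them from aggregating while they fold. HSP70 proteins do so in cycles driven by ATP, with J-domain proteins delivering clients and nucleotide exchange factors, among them HSP110 and BAG proteins, releasing them. HSP90 acts later on signalling proteins such as kinases and steroid receptors, and it keeps TGF-beta receptors stable. TRiC folds actin and tubulin in a closed chamber, and HSPD1 with HSPE1 does the like in mitochondria. Under proteotoxic stress the factor HSF1 raises transcription of many of these genes by binding heat shock elements, inverted repeats of the bases GAA, in their promoters. In liver, raised HSP70 protein is a histological marker of hepatocellular carcinoma.

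The arrays had nearly equal overall brightness, with median intensities of 50.1 to 51.0. Of 10 hepatocyte markers 9 were measured, and all 9 lay above the median gene, 1 (APOA1) having risen and 1 (TTR) fallen. All 6 endothelial markers were below the median gene, with a summed intensity of 189 to 190.5 in untreated cells and 178 to 188 with TGF-beta. So were 6 of 7 fibroblast markers, and LUM, the exception, made up most of that list's sum of 6953 to 7476 in untreated cells and 7011 to 7520 with TGF-beta. Of both lists 0 were called by limma, with 1 and 2 genes at an unadjusted p under 0.05. Of 6 leukocyte markers measured, 4 were below the median gene, CD14 rose and LCP1 fell. The summed intensity of these 6 was 715 to 763 in untreated cells and 547 to 618 after TGF-beta, and the part of this in any result on chaperones was not tested. The defining leukocyte genes PTPRC and CD3E had intensities of 23.0 to 31.7, at about the lower quartile of the arrays.

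Of the 46 chaperone genes, 1 rose, 0 fell and 45 did not pass the test (limma). The gene that rose was HSPA1A, the stress-inducible cytosolic HSP70. Among all genes 1.22% were called, 0.658% higher and 0.567% lower, so the count of chaperone genes called was near the background. A total of 9 chaperone genes, 7 with positive and 2 with negative values, had an unadjusted p under 0.05, as had 18.0% of all genes (9.35% positive and 8.60% negative). The median log2 fold change of the 46 genes was 0.10, with 29 positive and 17 negative values, against -0.01 over all genes. Without untreated array 2 the median of the chaperone genes was 0.05. Both TGF-beta arrays lay above both untreated arrays in 23 of the 46 genes and below them in 6, where 23.3% and 25.9% of all genes did so. Over all genes the log2 fold change ran from -1.82 to 1.90, and over the chaperone genes from -0.54 to 0.79. A range widens with the number of genes, so these are not alike. The median absolute log2 fold change was 0.13 over all genes and 0.12 over the chaperone genes.

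**Figure D1:**
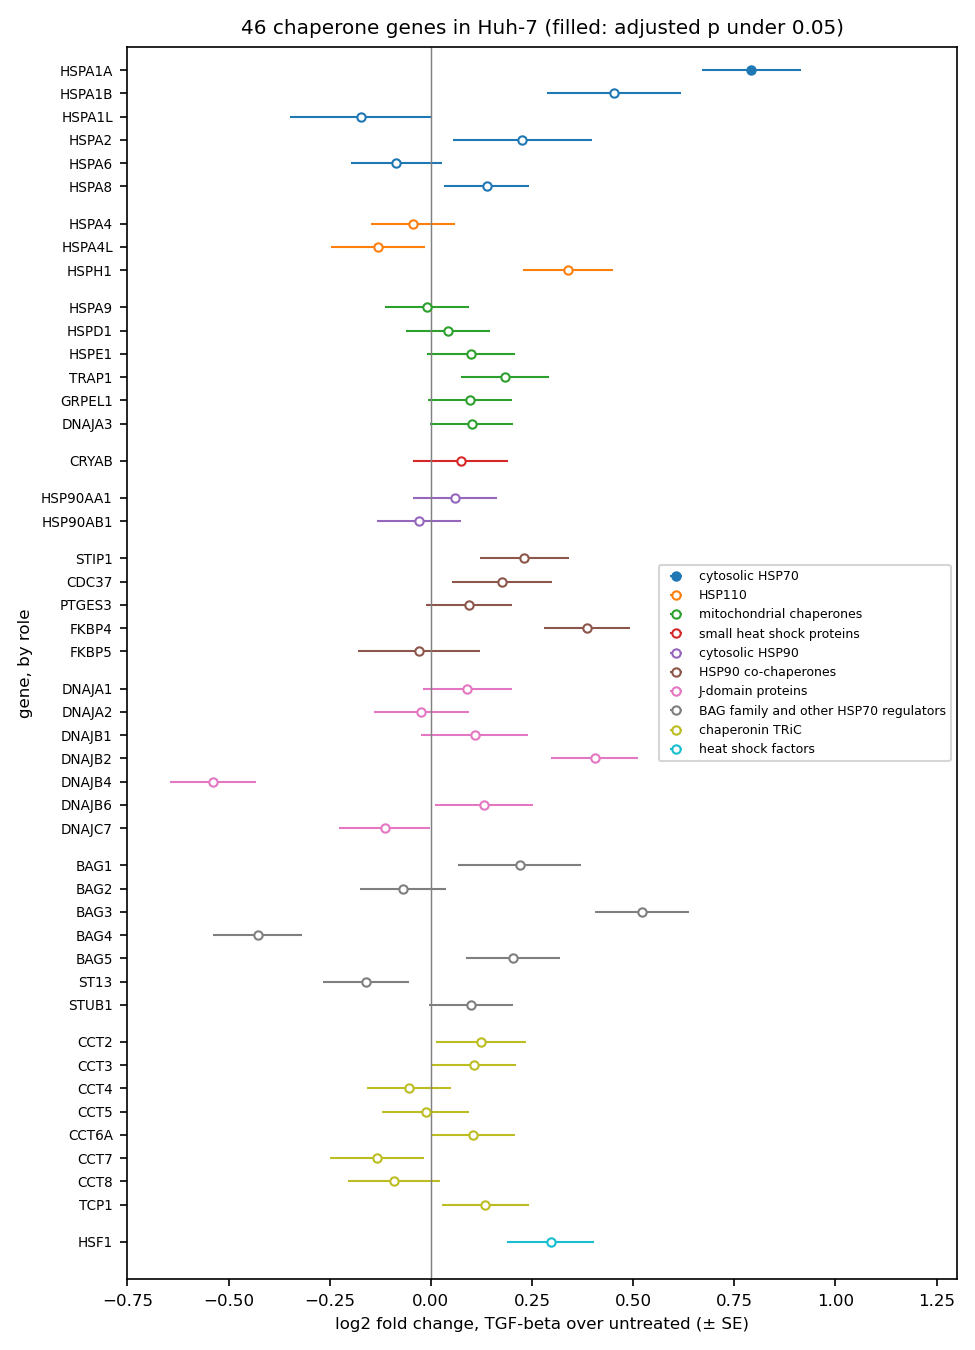
Log2 fold change (TGF-beta over untreated, horizontal axis) of each of the 46 chaperone genes, grouped and coloured by role, with bars for the SE from limma (n = 2 arrays per group). The filled point, HSPA1A at 0.79, is the only gene with an adjusted p under 0.05; BAG3 at 0.52 and DNAJB4 at -0.54 are the next largest on each side.

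Among cytosolic HSP70 proteins, 1 of 6 measured genes rose and 5 did not pass. HSPA1A had intensities of 1023 and 1223 on the untreated arrays and 1933 and 1942 after TGF-beta. The TGF-beta arrays were nearly equal and both exceeded the untreated ones. This is a 1.73-fold increase with a 95% confidence interval of 1.42 to 2.11, or 0.79 ± 0.12 on the log2 scale (SE, n = 2 per group, adjusted p = 0.0389). The call was lost without TGF-beta array 1 (log2 fold change 0.80, adjusted p = 0.281) and without TGF-beta array 2 (0.79, adjusted p = 0.225). In those fits 0 of 12165 genes were called by limma, with 1326 and 1563 at an unadjusted p under 0.05. The call held without untreated array 1 (0.66, adjusted p = 0.0374) and without untreated array 2 (0.92, adjusted p = 0.0104). Quantile normalization (0.83, adjusted p = 0.0530) and an offset of 32 added before the logarithm (0.78, adjusted p = 0.0559) also ended the call. In bulk RNA a change in every cell and a change in a share of the cells cannot be told apart.

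HSPA1B encodes the same HSP70 protein from a neighbouring copy of the gene. Its probe set read 116 and 113 in untreated cells, and 187 and 132 with TGF-beta. The groups did not overlap, but the TGF-beta arrays differed from each other by 0.50 on the log2 scale, about as much as the groups did. The log2 fold change was 0.45 ± 0.17 (SE) and did not pass (limma adjusted p = 0.215). A further probe set names HSPA1A and HSPA1B together. It read 343 and 397 in untreated cells, and 574 and 588 with TGF-beta, a log2 fold change of 0.65 ± 0.12 (SE). The limma adjusted p of 0.0585 is from a fit over all probe sets that name a gene, not the fit over genes used above. All 3 probe sets were therefore higher on both TGF-beta arrays, an order found in 23.3% of all genes. Because the copies are so alike, the 3 are not separate readings, and the share of each copy in any of these signals is uncertain.

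The promoters of these copies are shown because they carry the gene that rose and its twin, with the heat shock element letters in capitals. The search was for GAANNTTC or TTCNNGAA, each of which reads the same on both strands, in the 250 bases before a start site (RefSeq, GRCh38.p14). The window of HSPA1A is chr6:31815293-31815542 and that of HSPA1B is chr6:31827488-31827737, both on the plus strand.
HSPA1A: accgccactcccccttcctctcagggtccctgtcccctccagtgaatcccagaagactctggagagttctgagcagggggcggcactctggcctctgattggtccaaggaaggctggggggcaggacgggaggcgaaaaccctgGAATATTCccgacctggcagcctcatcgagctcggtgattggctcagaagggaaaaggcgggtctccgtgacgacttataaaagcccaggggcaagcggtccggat
HSPA1B: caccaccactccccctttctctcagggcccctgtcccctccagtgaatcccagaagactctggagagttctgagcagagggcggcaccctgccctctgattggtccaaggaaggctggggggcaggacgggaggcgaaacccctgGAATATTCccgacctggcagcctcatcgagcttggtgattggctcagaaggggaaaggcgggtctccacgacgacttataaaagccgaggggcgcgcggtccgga
These stretches were identical at 235 of 251 aligned positions (93.6%). Each held the match, at 106 bases before the start in HSPA1A and 105 in HSPA1B, together with 2 CCAAT boxes and a TATAAA box.

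HSPA1L, an HSP70 gene read in the opposite direction from the same stretch of DNA, shares 241 bases of its promoter window with HSPA1A, including the heat shock element match. Its probe set read 38.3 and 33.2 in untreated cells, and 37.7 and 26.5 with TGF-beta, below the median gene. The groups overlapped and the log2 fold change was -0.17 ± 0.18 (SE). HSPA6, a strictly stress-inducible HSP70, was near the lower end of the arrays, at 26.5 and 26.4 in untreated cells, and 23.4 and 26.5 with TGF-beta. It was below the lower quartile of genes, and its log2 fold change was -0.08. Its other probe set, also dim, gave -0.34 ± 0.13 (SE, limma unadjusted p = 0.0296). The limma adjusted p was 0.241 over all probe sets that name 1 gene, and the mean of both probe sets of HSPA6 gave -0.21. HSPA2, an HSP70 abundant in testis, ranged from 180 to 220 in untreated cells and from 200.2 to 272 after TGF-beta, so its groups overlapped.

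HSPA8 is the constitutive HSP70 of the cytosol, and it read 18519 and 17963 in untreated cells, and 19632 and 20516 with TGF-beta. Both TGF-beta arrays were higher, by a small amount. The log2 fold change was 0.14 ± 0.10 (SE, limma adjusted p = 0.552), with a 95% interval of -0.11 to 0.38. The other probe sets of HSPA8 gave 0.19 and 0.16. All of them are of kinds that can match related transcripts.

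**Figure D2:**
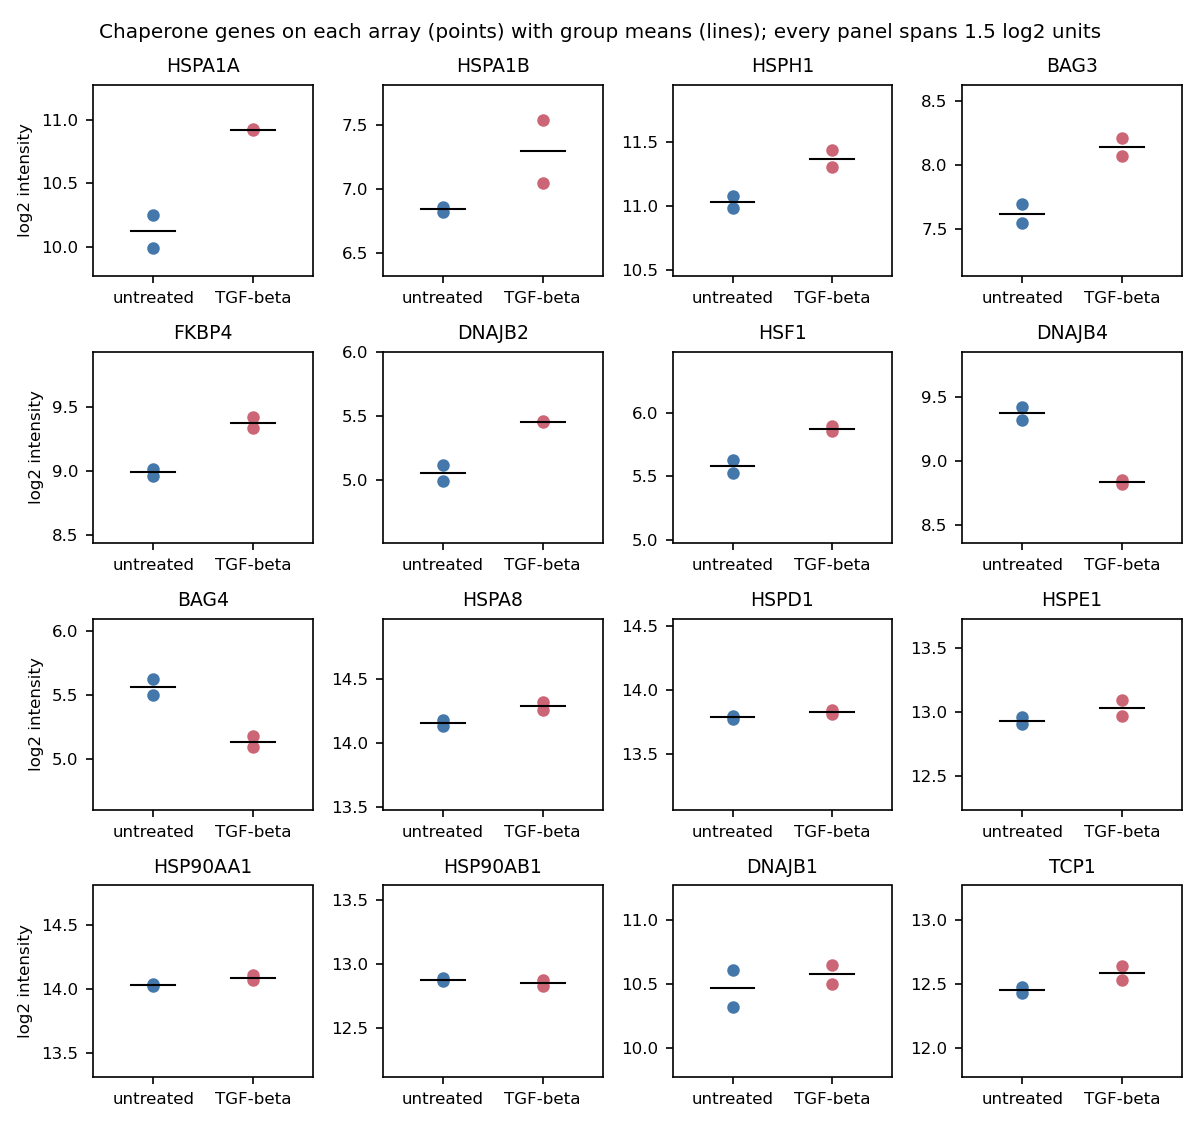
Log2 intensity of 16 chaperone genes on each of the 4 arrays (points; 2 untreated, 2 TGF-beta) with the group means (lines); every panel spans the same range on the log2 scale. Of the genes shown, only HSP90AB1 and DNAJB1 have overlapping groups. The 16 include the 9 with an unadjusted p under 0.05 (limma), so their share of separate groups cannot be set beside that of all genes. The groups separate in 29 of all 46 chaperone genes and in 49.1% of all genes.

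HSP110 proteins are nucleotide exchange factors of HSP70. None of the 3 passed the test. HSPH1, the heat-inducible one, read 2024 and 2157 in untreated cells, and 2523 and 2771 with TGF-beta. Its groups did not overlap, and its log2 fold change was 0.34 ± 0.11 (SE, limma adjusted p = 0.171). The other probe set of HSPH1 gave a smaller value, 0.20 ± 0.11. For its relatives HSPA4 and HSPA4L the log2 fold change was -0.04 and -0.13. The 4 probe sets of HSPA4 lay between -0.06 and -0.02.

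The J-domain proteins, which bring clients to HSP70 and stimulate its ATPase, had 0 calls among 7 genes and values on both sides of 0. DNAJB4 was the lowest of all 46 genes. It read 688 and 642 in untreated cells, and 452 and 463 with TGF-beta. The groups were far apart relative to their spread, and the log2 fold change was -0.54 ± 0.11 (SE), which did not pass (limma adjusted p = 0.0568). Its other probe set gave -0.63 ± 0.12. DNAJB4 would have been called without untreated array 2 (-0.59, adjusted p = 0.0429) and was not called without any other array.

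DNAJB2, a J-domain protein best known from neurons, was dim. It read 34.7 and 31.8 in untreated cells, and 44.0 and 43.9 with TGF-beta, with a log2 fold change of 0.40 ± 0.11 (SE, limma adjusted p = 0.109). DNAJB1 is the heat-inducible partner of HSPA1A. It read 1558 and 1277 in untreated cells, and 1448 and 1598 with TGF-beta, so the groups overlapped, and its log2 fold change was 0.11 ± 0.13 (SE). That value turned to -0.03 without untreated array 2, and its other probe set gave 0.24 ± 0.11. DNAJA1, a partner of HSPA8, stood at 0.09 ± 0.11 by its brightest probe set. Its other one read 1391 and 1102 in untreated cells, and 1772 and 1835 with TGF-beta. That gave 0.54 ± 0.14 (limma adjusted p = 0.106 over all probe sets that name 1 gene). The probe sets of DNAJA1 thus disagreed in size, though not in sign. DNAJB6, a suppressor of aggregation, DNAJA2 and DNAJC7 stood at 0.13, -0.02 and -0.11, with overlapping groups in each.

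Of the BAG family and other regulators of HSP70, 0 of 7 passed. BAG3, which links HSP70 to autophagy and is itself stress-inducible, read 186.5 and 207 in untreated cells, and 296 and 269 with TGF-beta. Every TGF-beta value exceeded every untreated one. The log2 fold change was 0.52 ± 0.12 (SE, limma adjusted p = 0.0736). Of the fits without 1 array, only that without untreated array 2 called it (0.60, adjusted p = 0.0461). BAG4, a regulator of death receptors, was dim and lay on the other side. It read 49.4 and 45.4 in untreated cells, and 34.1 and 36.3 with TGF-beta (-0.43 ± 0.11, limma adjusted p = 0.101). BAG1 and BAG5 stood at 0.22 and 0.20, and both moved with the untreated arrays. BAG1 stood at 0.43 without untreated array 1 and 0.00557 without untreated array 2, and BAG5 at 0.31 and 0.0973. BAG2, an inhibitor of STUB1, stood at -0.07. ST13 (HIP), which stabilizes HSP70 bound to ADP, stood at -0.16, and its other probe sets at -0.20 and -0.04. STUB1 (CHIP), a ubiquitin ligase that marks chaperone clients for degradation, stood at 0.10.

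**Figure D3:**
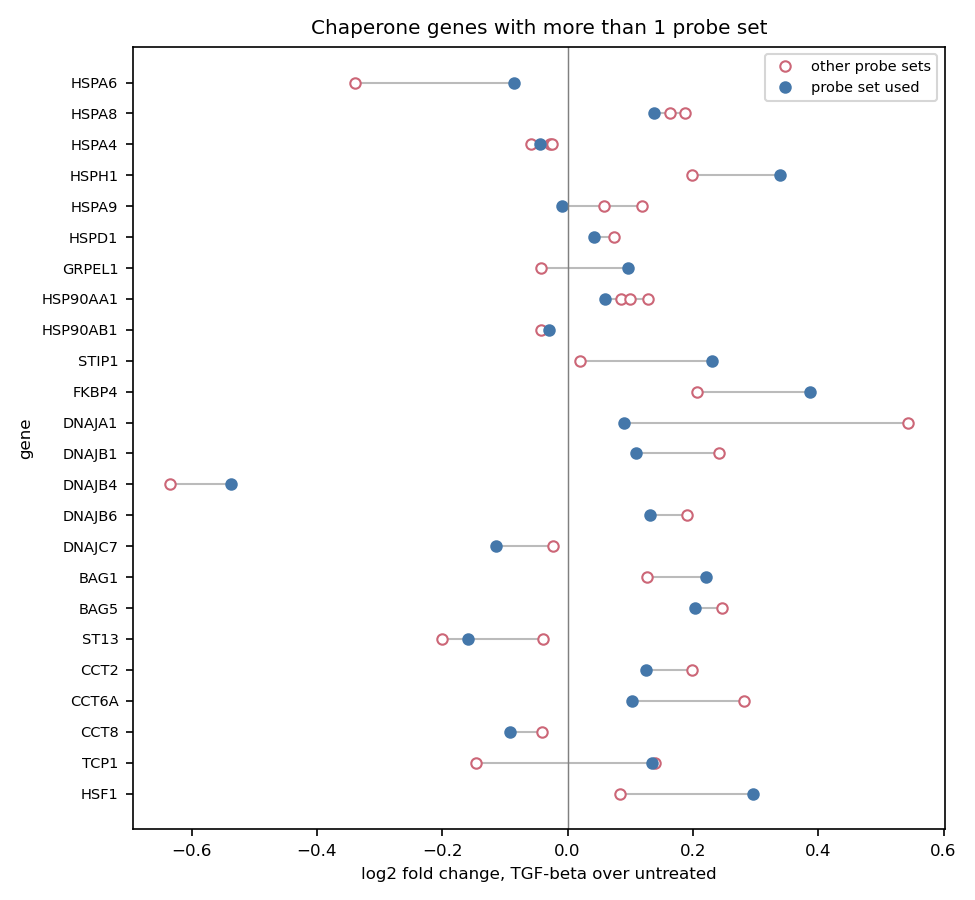
Log2 fold change (TGF-beta over untreated) of every probe set of the 24 chaperone genes that have more than 1, with the one used filled and the others open. In 21 genes all probe sets have the same sign; DNAJA1 has the widest gap, 0.09 against 0.54, and HSPA9, GRPEL1 and TCP1 have values on both sides of 0.

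Neither cytosolic HSP90 gene passed the test. HSP90AA1, the stress-inducible form, read 16829 and 16614 in untreated cells, and 17649 and 17209 with TGF-beta. The TGF-beta arrays were slightly higher, and the log2 fold change was 0.06 ± 0.10 (SE), with a 95% interval of -0.18 to 0.30. Its 3 other probe sets gave 0.09 to 0.13. HSP90AB1, the constitutive form, read 7591 and 7503 in untreated cells, and 7276 and 7510 with TGF-beta. Here the groups overlapped, and the log2 fold change was -0.03 ± 0.10 (SE), with an interval of -0.27 to 0.21.

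HSP90 co-chaperones had 0 calls among 5 measured genes, and in 4 of the 5 both TGF-beta arrays were higher, where 23.3% of all genes had this order. FKBP4 (FKBP52), an immunophilin of steroid receptor complexes, read 518 and 499 in untreated cells, and 684 and 646 with TGF-beta. The groups were clearly apart, but the log2 fold change of 0.39 ± 0.11 (SE) did not pass (limma adjusted p = 0.114), and the other probe set gave 0.21 ± 0.12. FKBP5 (FKBP51), which opposes FKBP4 in those complexes, was dim and its groups overlapped, at 45.4 and 35.1 in untreated cells, and 36.4 and 42.0 with TGF-beta. STIP1 (HOP), which hands clients from HSP70 to HSP90, stood at 0.23 by the probe set used and 0.02 by the other. CDC37, the adaptor for kinases, stood at 0.18 and PTGES3 (p23), which stabilizes the closed HSP90 dimer, at 0.09.

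No mitochondrial chaperone passed the test. HSPD1 (HSP60) read 14035 and 14256 in untreated cells, and 14404 and 14738 with TGF-beta. Its partner HSPE1 (HSP10) read 7665 and 7972 in untreated cells, and 8020 and 8732 with TGF-beta. In both genes the TGF-beta arrays were higher by little, with log2 fold changes of 0.04 ± 0.10 and 0.10 ± 0.11 (SE). HSPA9 (mortalin), the mitochondrial HSP70, read 3747 and 3687 in untreated cells, and 3651 and 3735 with TGF-beta. The groups of HSPA9 overlapped at -0.01 ± 0.10 (SE), and its other probe sets gave 0.06 and 0.12. GRPEL1, the nucleotide exchange factor of HSPA9, stood at 0.10 by the probe set used and -0.04 by the other. DNAJA3, a mitochondrial J-domain protein, stood at 0.10, and TRAP1, the mitochondrial HSP90, at 0.18. Together, 5 of these 6 genes had both TGF-beta arrays above both untreated arrays, where 23.3% of all genes did, by at most 0.18 on the log2 scale and with 0 at an unadjusted p under 0.05 (limma).

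The 8 subunits of TRiC had 0 calls (limma, 0 at an unadjusted p under 0.05) and divided evenly, 4 positive and 4 negative. TCP1 read 5684 and 5524 in untreated cells, and 5924 and 6391 with TGF-beta, a log2 fold change of 0.14 ± 0.11 (SE). Its other probe sets gave 0.14 and -0.15. CCT2, CCT3 and CCT6A stood at 0.12, 0.11 and 0.10, and CCT4, CCT5, CCT7 and CCT8 at -0.05, -0.01, -0.13 and -0.09. The 95% intervals of the 8 genes lay between -0.41 and 0.39, so the 2 arrays a group leave room for changes of these sizes in either direction. By the probe sets used, each subunit was within 0.14 of 0 on the log2 scale. Other probe sets went further, with CCT6A at 0.28 ± 0.11 (SE) and CCT2 at 0.20 ± 0.10. For CCT6A the limma unadjusted p was 0.0390 and the adjusted p 0.275, over all probe sets that name 1 gene.

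HSF1, the factor that drives heat-shock transcription, was dim, at 49.5 and 46.2 in untreated cells, and 59.5 and 57.9 with TGF-beta. The groups did not overlap, and the log2 fold change was 0.30 ± 0.11 (SE, limma adjusted p = 0.209). Its other probe set, dimmer still, gave 0.08 ± 0.11. HSF1 protein is regulated largely after translation, so its transcript is no measure of its activity. CRYAB, a small heat shock protein prominent in muscle and lens, was below the lower quartile of genes, at 24.8 to 28.8 on all arrays.

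**Figure D4:**
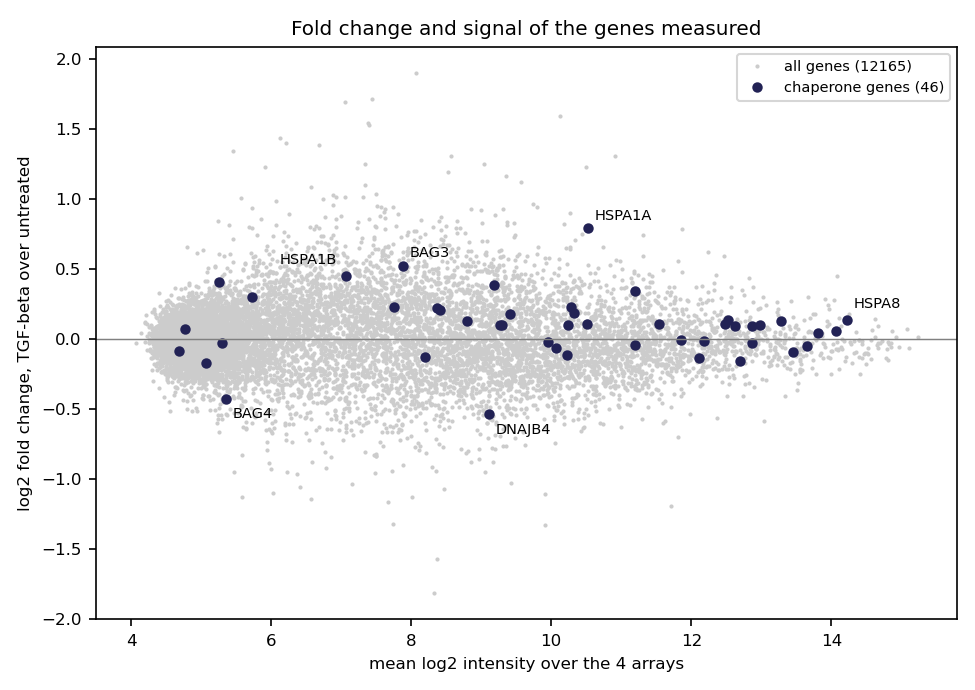
Log2 fold change (TGF-beta over untreated) against mean log2 intensity over the 4 arrays for all 12165 genes (grey) and the 46 chaperone genes (dark). Most chaperone genes are bright, 7 being below the median gene. A log2 fold change more than 0.3 from 0 was found in 8 of the 46 and in 2133 of all 12165 genes.

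Heat shock element letters were searched in every RefSeq promoter window of the same length. Of the 46 genes 38 had a window, and 16 of the 38 (42.1%) held GAANNTTC or TTCNNGAA, against 13.1% of all measured genes with a window. The longer form GAANNTTCNNGAA or TTCNNGAANNTTC, 3 units in a row on either strand, was held by 6 of the 38 (15.8%) and by 0.546% of all measured genes. Each longer match also contains the shorter one. CCAAT was held by 39.5% and 42.5%, and TATAAA by 15.8% and 11.1%. The genes with no window were GRPEL1, CRYAB, FKBP4, BAG4, ST13, STUB1, CCT6A and HSF1. Genes with more than 1 start site have several windows and were counted once.

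The 6 genes with the longer form were HSPA6, HSPA8, HSPD1, HSP90AA1, HSP90AB1 and DNAJB6. Their median log2 fold change was 0.05, with a range of -0.08 to 0.14, and 0 of the 6 were called. The 16 genes with the shorter form had a median of 0.08 and a range of -0.54 (DNAJB4) to 0.79 (HSPA1A), with 1 called. The 22 without it had a median of 0.10 and a range of -0.13 to 0.52, with 0 called. No difference between these groups of genes was tested, and a match says nothing about the binding of any factor. The stretches of 150 bases before the start are shown for 3 genes with the longer form and for DNAJB4, the lowest of the 46, to set beside HSPA1A. They are chr1:161524390-161524539 (HSPA6, plus strand), chr11:123062137-123062286 (HSPA8, minus strand), chr14:102087045-102087194 (HSP90AA1, minus strand) and chr1:78004789-78004938 (DNAJB4, plus strand), with the matches in capitals.
HSPA6: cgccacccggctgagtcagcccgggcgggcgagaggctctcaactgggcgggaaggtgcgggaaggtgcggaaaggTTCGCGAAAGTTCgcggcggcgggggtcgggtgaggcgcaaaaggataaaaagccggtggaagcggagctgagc
HSPA8: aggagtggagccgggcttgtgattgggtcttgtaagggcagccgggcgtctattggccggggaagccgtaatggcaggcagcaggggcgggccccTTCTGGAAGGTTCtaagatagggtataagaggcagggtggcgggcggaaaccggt
HSP90AA1: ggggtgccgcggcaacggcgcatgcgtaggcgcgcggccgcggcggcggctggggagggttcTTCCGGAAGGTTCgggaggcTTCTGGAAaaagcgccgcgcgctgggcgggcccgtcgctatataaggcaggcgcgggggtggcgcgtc
DNAJB4: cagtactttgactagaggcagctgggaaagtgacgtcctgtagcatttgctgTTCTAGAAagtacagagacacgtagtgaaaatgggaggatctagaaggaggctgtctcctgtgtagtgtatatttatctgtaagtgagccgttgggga
The matches began 74 bases before the start in HSPA6, 55 in HSPA8, 88 and 68 in HSP90AA1 and 98 in DNAJB4. Outside the stretches shown, HSPA8 held a further longer match 230 bases before its start, and HSPA6 a further shorter match at 180 bases.

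Textbook target genes of HSF1, most of which are among the 46, had the same single call. Of 22 measured, HSPA1A rose, 0 fell and 21 did not pass (limma), where 1.22% of all genes were called. There were 17 positive values, where 48.6% of all genes were positive, and the median log2 fold change was 0.10. An unadjusted p under 0.05 was found for 7 with positive and 1 with negative values (9.35% and 8.60% of all genes). Both TGF-beta arrays were higher in 13 genes and lower in 2 (23.3% and 25.9% of all genes). The list as a whole was not tested. SERPINH1 (HSP47, the collagen chaperone) read 168 and 227 in untreated cells, and 256 and 255 with TGF-beta, a log2 fold change of 0.39 ± 0.15 (SE, limma adjusted p = 0.242). HSPB8, the small heat shock protein that works with BAG3, read 570 and 556 in untreated cells, and 642 and 728 with TGF-beta (0.28 ± 0.11, limma adjusted p = 0.256). UBB, a ubiquitin gene, stood at 0.10, CHORDC1, an HSP90 co-chaperone, at 0.07 and MRPL18, a mitochondrial ribosomal protein, at -0.06.

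Among 59 other measured chaperone genes (further J-domain proteins, HSP90 co-chaperones, prefoldin, mitochondrial proteases and small heat shock proteins) 0 were called by limma. An unadjusted p under 0.05 was found for 7 with positive and 5 with negative values, near the 9.35% and 8.60% of all genes, and the median log2 fold change was 0.01. The smallest p values on the higher side belonged to DNAJC11 (0.60 ± 0.13, adjusted p = 0.0722), a J-domain protein of the mitochondrial outer membrane, PPIF (0.35, the mitochondrial cyclophilin) and SGTA (0.40, a factor for tail-anchored proteins). On the lower side they belonged to DNAJB14 and DNAJC13 (both -0.33) and HSPA13 (-0.31). Of the prefoldin subunits, which pass actin and tubulin to TRiC, PFDN1, PFDN2, PFDN4, PFDN5 and PFDN6 had values of -0.22, -0.15, -0.24, -0.22 and -0.16 and VBP1 had 0.04, with 0 calls.

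Replicate arrays agreed closely for chaperone genes. The median absolute log2 difference between arrays of a group was 0.10 in untreated cells and 0.04 after TGF-beta for the 46 genes, against 0.13 and 0.12 over all genes. Only 7 of the 46 were below the median gene, and the difference at matched signal was not tested. Between the TGF-beta arrays the widest gaps were those of HSPA1L (0.51), HSPA1B (0.50) and HSPA2 (0.44), and between the untreated arrays the widest was that of BAG1 (0.43).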

How the data were processed

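RNA from 4 samples was measured on arrays, and the deposited table gives a linear intensity for each probe set on each array. Per the submitters' processing notes the authors used the affy package, and its background correction, summary method and settings are not stated there or in the labels. Quartiles were nearly equal between arrays, so no scaling was added. Of 22215 probe sets, 19724 name 1 gene, 568 several and 1923 none in the platform's annotation, which can be old, and 19707 received a current symbol by Entrez number from RefSeq (GRCh38.p14, used for names and promoter sequences). Each gene took its brightest probe set over the 4 arrays, giving 12165 genes.

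Log2 intensities, with no offset, were fitted with limma 3.58.1 (R 4.3.3; lmFit and eBayes, 7.41 degrees of freedom per gene, two-sided) over all genes. The median SE was 0.12 on the log2 scale. Arrays have no read depth, and their number limits the precision. The procedure was run on data simulated from its own variance model, which does not check that model on these arrays. Promoters were searched and figures drawn in Python 3.11.15 with matplotlib 3.10.9.

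The members and lists were chosen with earlier results of these data known. Values on every array are given for those of the 46 genes with an unadjusted p under 0.05. They are also given for the measured genes of a fixed set of main chaperones. Further chaperone genes with an unadjusted p under 0.05 are counted, and those with the smallest p values in each direction are named. Other genes, and DNAJA1's other probe set, were named after their values were seen. Alternatives were quantile normalization, median centring, other choices of probe set, a filter on dim genes, an offset of 32, an intensity trend, the array number as a block and leaving out each array.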

Additional observations from a re-analysis of the deposited data

How the results depend on the processing

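Over 12 alternatives, 522 of 550 values of single chaperone genes kept their direction and their side of the threshold. As 45 of the 46 genes were not called to begin with, keeping their side was largely fixed in advance. HSPA1A, the gene that was called, lost its call under quantile normalization, with the offset of 32 and without either TGF-beta array. Among genes above the lower quartile it was just under the threshold (limma adjusted p = 0.0499). The count of all genes called, 149, became 63 under quantile normalization, 89 among genes above the lower quartile, 51 with an offset of 32, 616 with an intensity trend and 0 to 523 when 1 array was left out. Chaperone genes called higher numbered 0 under quantile normalization and with the offset, 2 with the trend (HSPA1A and HSPH1) and 0 to 2 when 1 array was left out. Those called lower numbered 1 with the trend (DNAJB4) and 0 to 1 when 1 array was left out. The median over the 46 genes ranged from 0.0522 to 0.0868 when 1 array was left out. The cause of these shifts was not tested.

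With the array number as a replicate block, 1229 genes were called, or 10.1% of all. Among them were 4 chaperone genes higher (HSPA1A, HSPA1B, BAG3 and DNAJB2) and 2 lower (DNAJB4 and BAG4). In that fit the SE of HSPA1A, BAG3, DNAJB2, DNAJB4 and BAG4 was 0.14, above the 0.11 to 0.12 of the main fit. HSPA1B had a smaller SE, 0.14 against 0.17. Why more genes were called was not tested. The labels do not say whether like-numbered arrays were handled together. Their deviations from the group means had a correlation of 0.01 across genes. A pairing that affects only some genes was not tested.

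Small values changed sign in 9 genes. Under quantile normalization DNAJA2 stood at 0.0219 and CCT5 at 0.00766. HSPA9 stood at 0.0556 with the mean of all probe sets and at 0.0578 with probe sets of the more specific kind, where TCP1 stood at -0.15. When 1 array was left out, HSPA9 ranged from -0.0257 to 0.00722, CRYAB from -0.0357 to 0.18, FKBP5 from -0.21 to 0.16, DNAJA2 from -0.13 to 0.0876, CCT5 from -0.0701 to 0.0442, DNAJB1 from -0.0345 to 0.25, HSPA6 from -0.17 to 0.00452 and HSPA1L from -0.43 to 0.0814.
Signal limits what can be seen in the 7 genes below the median gene, of which HSPA6 and CRYAB were below the lower quartile. The offset of 32 shrank the log2 fold change of DNAJB2 from 0.40 to 0.22 and of BAG4 from -0.43 to -0.24. That of HSF1 went from 0.30 to 0.18.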
